A study of Homo sapiens with 3 samples.

Results

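Interferon-stimulated genes (ISGs) are the genes that cells switch on when interferon binds its receptors. The 45 ISGs described here were listed by name, and all 45 were on the array, among 41810 named genes. The array held 60 probes for them, with 31 genes on 1 probe, 13 on 2 probes, and 1 gene, OAS2, on 3 probes. For each gene, the probe with the highest mean normalized intensity over the 3 arrays was used, so the choice of probe used brightness and not the direction of a difference. Each chosen probe exceeded background clearly (the scanner's well-above-background mark) on Ctrl, IMQ, and IMQ+DMD alike.

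RNA came from THP-1, a human monocytic leukemia cell line, made macrophage-like with PMA at 100 ng/mL for 24 to 36 h and then kept overnight in fresh medium. The Ctrl cells received neither compound, the IMQ cells received imiquimod (IMQ), and the remaining cells received the compound the labels call X before IMQ, each with 1 array labelled 4 h. Imiquimod is a small-molecule ligand of TLR7, an endosomal receptor for single-stranded RNA. X was read as DMD, a dimethoxy-methyl benzenediol found in the fungus Antrodia cinnamomea and the only other compound that the protocol names, and this array is called IMQ+DMD below. The labels gave no doses, and no array of DMD alone was analysed here. The sample labels and the general treatment description of the study did not give the same exposure time to IMQ, so 4 h is the labelled time. With 1 array per condition, differences between arrays had no replicate check and no p-values were computed. All cells were of 1 cell line, and fewer cells that express a gene and less RNA per cell cannot be told apart in such bulk RNA.

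Type I interferons, which include IFN-β and the IFN-α family, bind a receptor made of IFNAR1 and IFNAR2. JAK1 and TYK2 then activate a complex with STAT2 and IRF9, which binds the interferon-stimulated response element (ISRE) in ISG promoters. IFN-γ acts through IFNGR1 and IFNGR2 on genes that carry the GAS element. In macrophages, endosomal TLRs can start interferon production through IRF7, and the same receptors activate NF-κB, which drives inflammatory cytokines.

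The promoter windows of RefSeq (build GRCh38.p14, 250 bases before to 50 after the annotated start) contained 36 of the 45 ISGs by symbol, with DDX58 found under its present symbol RIGI. IFIT2, USP18, OAS2, OASL, MX2, GBP2, GBP5, LY6E, and TRIM22 had no window in the table. Some genes had more than 1 window, and a gene counted if any of its windows held the letters. The ISRE core (GAAA, any 2 bases, GAAA), read on both strands, was present in 27 of the 36 ISGs (75%) and in 4.38% of 27305 genes. The GAS letters TTCNNNGAA were present in 10 of the 36 (27.8%) against 9.38% of all, and the kappa-B consensus in 9 (25.0%) against 13.3% of all. The following 6 stretches end at the last base before the start and are shown for genes whose values are described below, including 2 whose signal was higher after IMQ (ISG20 and IFIH1). They are written 5′ to 3′ on the strand of the gene, and the capitals mark ISRE cores, which read TTTC, any 2 bases, TTTC where the core lies on the opposite strand. Cores that overlap run together.
IFIT1, chr10:89392473-89392622, plus strand: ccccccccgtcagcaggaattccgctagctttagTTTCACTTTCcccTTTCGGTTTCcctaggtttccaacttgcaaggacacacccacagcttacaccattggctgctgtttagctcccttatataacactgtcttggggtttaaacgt
ISG15, chr1:1013347-1013496, plus strand: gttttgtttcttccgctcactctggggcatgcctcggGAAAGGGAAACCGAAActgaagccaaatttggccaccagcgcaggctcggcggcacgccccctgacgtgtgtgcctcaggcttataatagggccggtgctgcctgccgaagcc
GBP1, chr1:89065209-89065358, minus strand: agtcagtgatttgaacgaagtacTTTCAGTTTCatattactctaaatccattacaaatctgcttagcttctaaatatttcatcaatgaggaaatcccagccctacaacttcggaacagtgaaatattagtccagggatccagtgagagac
CXCL10, chr4:76023498-76023747, minus strand: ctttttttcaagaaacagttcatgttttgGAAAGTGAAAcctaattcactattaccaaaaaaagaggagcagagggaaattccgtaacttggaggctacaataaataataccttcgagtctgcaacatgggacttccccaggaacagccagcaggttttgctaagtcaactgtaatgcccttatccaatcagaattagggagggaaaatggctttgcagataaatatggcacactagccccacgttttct
ISG20, chr15:88638866-88639015, plus strand: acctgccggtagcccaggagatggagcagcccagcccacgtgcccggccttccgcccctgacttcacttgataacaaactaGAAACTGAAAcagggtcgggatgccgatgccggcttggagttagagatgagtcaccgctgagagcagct
IFIH1, chr2:162318685-162318884, minus strand: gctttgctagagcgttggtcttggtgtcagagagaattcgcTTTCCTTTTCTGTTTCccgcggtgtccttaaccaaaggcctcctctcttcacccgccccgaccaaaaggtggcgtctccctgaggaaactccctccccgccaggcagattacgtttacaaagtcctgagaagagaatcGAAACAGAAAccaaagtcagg
Of the 27 ISGs with a core, 21 were lower and 6 higher after IMQ than Ctrl, and of the 9 without a core 9 were lower and 0 higher. This split rested on the scaling of the arrays. Of the 6 higher genes, GBP4, IFIH1, PLSCR1, IFI6, and IFI27 fell below Ctrl under the spike-in scaling described below. The median of all genes was -0.69 there, and ISG20 stayed higher. The median log2 difference between IMQ and Ctrl was -0.43 over the 27 ISGs with a core and -0.78 over the 9 without, and the genes with a core ran from -1.55 to 1.96. The medians with and without the GAS letters were -0.23 and -0.74, and those for kappa-B -0.63 and -0.70. The 9 ISGs without a window are missing from these medians. All of them were lower after IMQ, among them USP18 (-1.75), IFIT2 (-1.56), and TRIM22 (-1.26). A match is a stretch of letters and not a measured binding site.

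IMQ-treated cells had lower signals than Ctrl cells for most of the ISGs. Of the 45 genes, 39 (86.7%) were lower by any amount, compared with 52.3% of the 30876 genes that could be compared, and 6 (13.3%) were higher, compared with 47.7%. A 2-fold or larger decrease was found for 11 (24.4%), against 3.67% of all genes, and a 2-fold or larger increase for 1 (ISG20), against 4.23%. The median log2 difference was -0.70 over the ISGs and -0.02 over all genes. The noise between repeated spots of a probe on an array gave a technical SD for a log2 difference of 0.07 (median over the ISGs, range 0.06 to 0.52). This SD covers spot noise only and not the variation between cultures. By that measure, 35 ISGs were lower by over 2 technical SDs, against 23.2% of all genes, 4 were higher, against 21.6%, and 6 (GBP4, CXCL11, PARP14, IFI27, EPSTI1, and SAMD9) were within them.

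**Figure D1:**
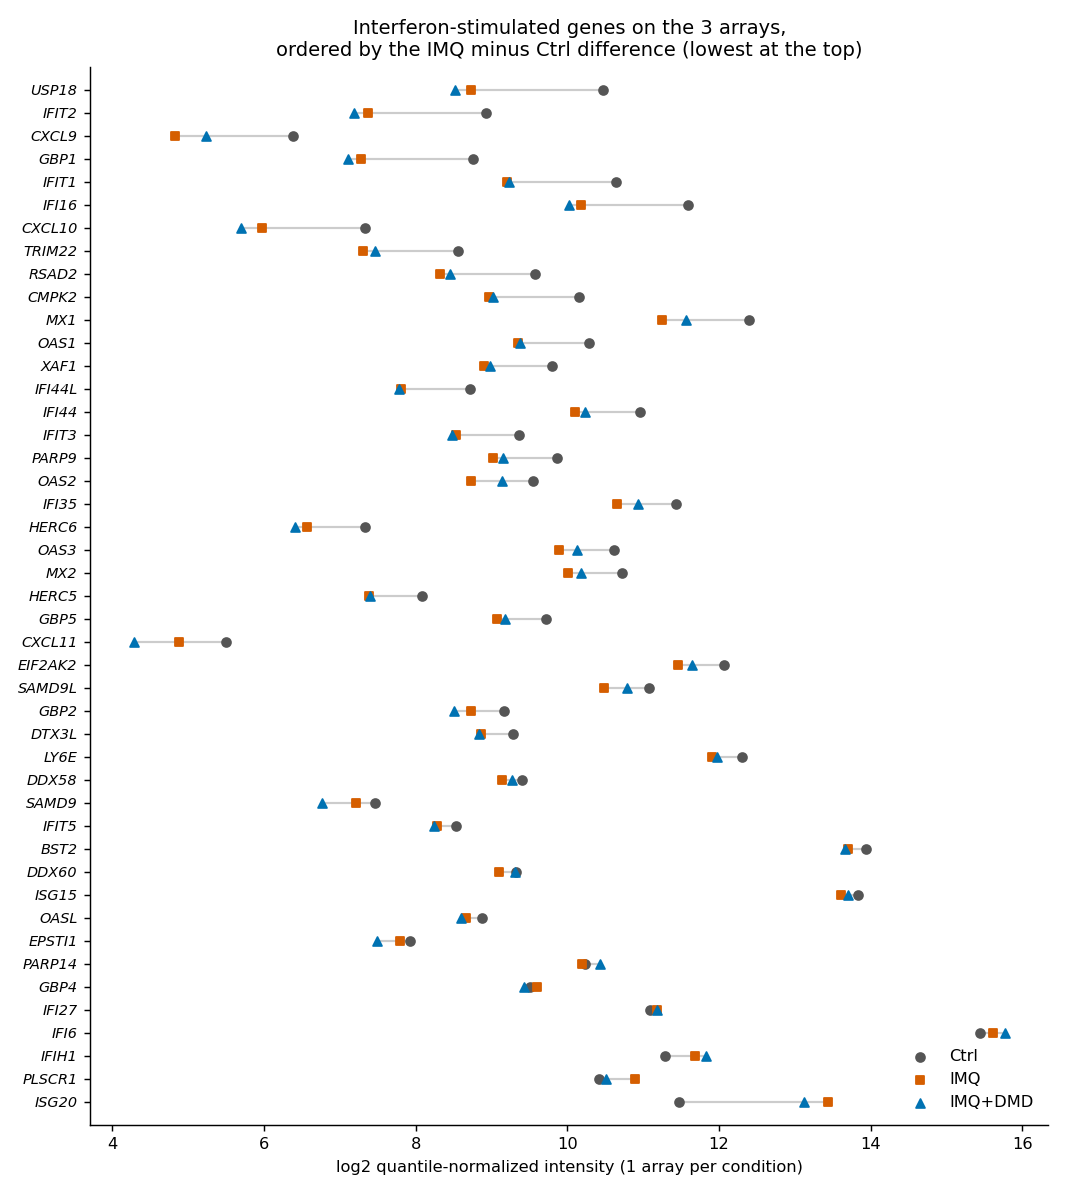
Log2 quantile-normalized intensity (x axis) of each of the 45 ISGs (y axis) on the Ctrl (grey circles), IMQ (orange squares), and IMQ+DMD (blue triangles) arrays, with 1 array per condition and genes ordered by the IMQ minus Ctrl difference. For 39 genes the IMQ square lies left of the Ctrl circle, and ISG20 at the foot of the plot has the square farthest to the right of its circle. Positions of different genes along the x axis depend on their probes and are not compared.

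The size of this downward difference depended on how the arrays were scaled, because the IMQ array was dimmer as a whole, with a median processed intensity of 61.8 compared with 94.5 on the Ctrl array and 76.4 on the IMQ+DMD array. Without normalization between arrays, the median of all genes moved to -0.51, and with scaling to 8 spike-in controls to -0.69. The ISG median then moved to -1.15 and -1.33, and 25 and 29 ISGs were at least 2-fold lower, while normexp gave 8. Over the 10 alternative settings, the ISG median minus the median of all genes stayed between -0.71 and -0.54, and 8 to 11 ISGs were at least 2-fold lower relative to that median. Of all genes, 25.1% were at least 2-fold lower and 1.4% higher under spike-in scaling, compared with 3.67% and 4.23% after quantile normalization. The values below are therefore relative to the bulk of genes.

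**Figure D2:**
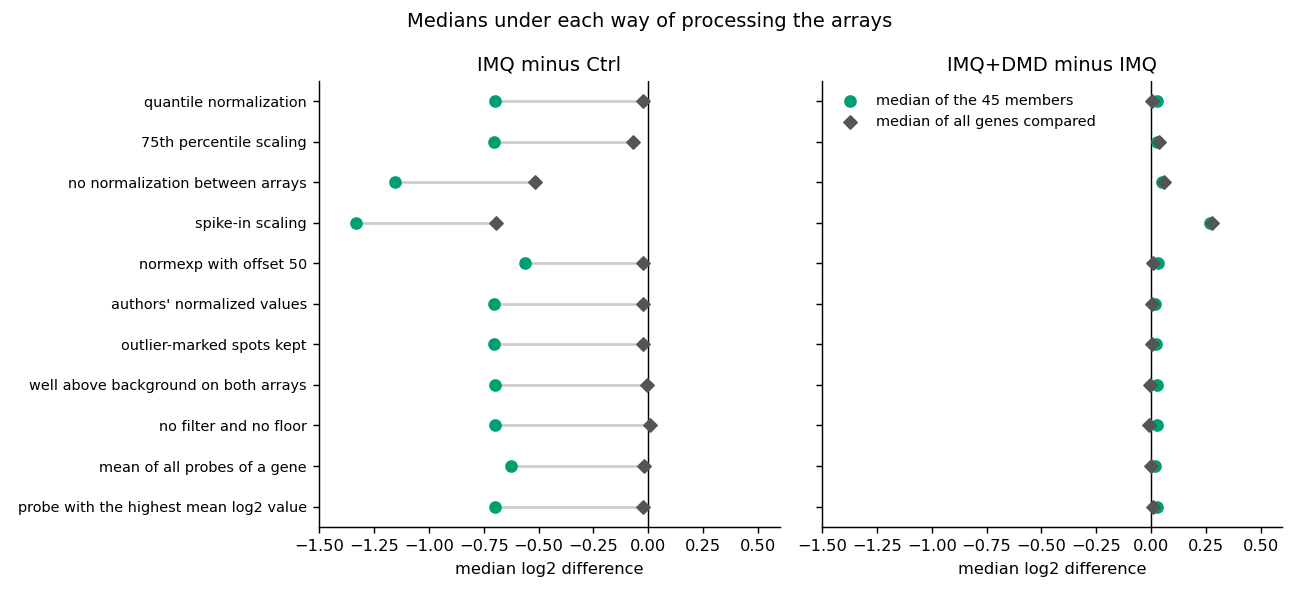
Median log2 difference (x axis) of the 45 ISGs (green circles) and of all genes compared (grey diamonds) under quantile normalization and 10 alternatives (y axis), for IMQ minus Ctrl (left) and IMQ+DMD minus IMQ (right). In the left panel each circle lies to the left of the diamond of its row, at a difference of -0.71 to -0.54 in the alternatives. In the right panel the symbols nearly coincide.

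The IFIT proteins bind viral RNA ends and block translation. The probe of IFIT1 (chr10:91163438-91163497 in hg19, the build of the scanner files) read 10.64 on Ctrl, 9.21 on IMQ, and 9.23 on IMQ+DMD in log2 intensity. The drop of 1.44 between Ctrl and IMQ (2.71-fold lower, technical SD 0.07) was also plain in the processed intensity before normalization, which went from 1954 to 530 and was 537 with DMD. IFIT2 (chr10:91068397-91068456) read 8.93, 7.37, and 7.19 on the same arrays, a difference of -1.56 between IMQ and Ctrl. The second IFIT2 probe (chr10:91066613-91066672) was well above background on Ctrl alone, and was at least 2.59-fold lower on IMQ and at least 3.65-fold lower on IMQ+DMD. The log2 differences of IFIT3 and IFIT5 between IMQ and Ctrl were smaller, -0.84 and -0.25. All 4 IFIT genes, which lie side by side on chromosome 10, therefore had lower signals, by very unequal amounts.

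ISG15 is a ubiquitin-like protein that is attached to other proteins by HERC5 and removed from them by USP18, which also blocks signalling at IFNAR2. USP18 (chr22:18659618-18659677) had the most negative IMQ minus Ctrl difference of the 45 genes. It read 10.47 on Ctrl, 8.73 on IMQ, and 8.51 on IMQ+DMD, a log2 difference from Ctrl of -1.75 with IMQ (3.35-fold lower) and of -1.96 with IMQ+DMD. ISG15 itself (chr1:949567-949626) changed little, with 13.83, 13.60, and 13.69. HERC5 was at -0.70 for IMQ against Ctrl. HERC6, a related ligase-like protein, read 7.33, 6.57, and 6.41, and its other probe read 6.34, 5.88, and 6.13. Thus the modifier and its protease differed in size of response by over 1 log2 unit on the same arrays.

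The OAS enzymes make 2′-5′ oligoadenylates, which activate RNase L, and OASL is a family member without that activity. All 4 were lower after IMQ and none reached 2-fold. OAS1 read 10.28, 9.35, and 9.38 on Ctrl, IMQ, and IMQ+DMD. OAS2 read 9.55, 8.73, and 9.14, and OAS3 read 10.62, 9.89, and 10.12. OASL had the smallest IMQ minus Ctrl difference of the family at -0.21. OAS2 also had the highest IMQ+DMD minus IMQ difference of all 45 genes, 0.41, but its other 2 probes gave 0.10 and 0.11 there, so the larger value was not shared within the gene.

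The MX proteins are dynamin-like GTPases that trap viral ribonucleoproteins. MX1 (chr21:42831014-42831073) read 12.40 on Ctrl, 11.24 on IMQ, and 11.56 on IMQ+DMD. The IMQ minus Ctrl difference was -1.16 and that of IMQ+DMD against Ctrl -0.84, so MX1 was beyond 2-fold in the former comparison and not in the latter. MX2 read 10.72, 10.00, and 10.18 (-0.72 for IMQ against Ctrl). A second MX2 probe, designed to the transcript ENST00000495892 at chr21:42735919-42735978, read 7.68, 7.77, and 7.76 and showed no such drop (0.09, technical SD 0.13). The probes of MX2 thus gave opposite signs, and only the brighter was below Ctrl by more than the spot noise.

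Guanylate-binding proteins (GBPs) coat pathogen vacuoles and respond to IFN-γ as well as type I interferons. GBP1 (chr1:89518789-89518848) read 8.75, 7.27, and 7.11 on Ctrl, IMQ, and IMQ+DMD, a log2 difference of -1.48 for IMQ against Ctrl (2.78-fold lower). GBP5 was at -0.64 and GBP2 at -0.44 in the same comparison. GBP4, by contrast, read 9.51, 9.59, and 9.42, and its difference of 0.08 was within the spot noise. The neighbouring genes of this cluster on chromosome 1 therefore did not share one value.

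Among the sensors, IFIH1 (MDA5) and DDX58 (RIG-I) detect cytosolic double-stranded RNA and 5′-triphosphate RNA, IFI16 binds DNA, and EIF2AK2 (PKR) shuts down translation when it meets double-stranded RNA. IFI16 (chr1:159024619-159024678) read 11.59 on Ctrl, 10.17 on IMQ, and 10.01 on IMQ+DMD, a difference of -1.42 for IMQ against Ctrl. EIF2AK2 read 12.06, 11.46, and 11.65 (other probe 8.33, 7.68, and 7.58), and DDX58 read 9.40, 9.14, and 9.27 (other probe 9.21, 8.67, and 8.32). Each of these probes was lower on IMQ than on Ctrl, and DDX60, a cofactor of RIG-I signalling, was at -0.23. IFIH1 (chr2:163128806-163128865) went the other way and read 11.29, 11.68, and 11.83. Its IMQ minus Ctrl difference of 0.39 came from a processed intensity of 3035, 3064, and 3126, which was nearly level before normalization, and it became -0.16 under spike-in scaling. The sensor genes had a median difference of -0.26, closer to 0 than the IFIT genes (-1.14).

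CXCL9, CXCL10, and CXCL11 are the ligands of CXCR3, a receptor that guides T cells, and their signals lay nearer the background limit, where spot noise was larger. CXCL10 (chr4:76942934-76942993) read 7.34, 5.97, and 5.69, and its second probe (chr4:76943520-76943579) read 7.19, 6.09, and 5.86. The probes gave similar IMQ minus Ctrl differences of -1.36 and -1.10. CXCL9 (chr4:76922796-76922855) read 6.38, 4.83, and 5.23, with a difference of -1.55 and a technical SD of 0.50 at this low level. The spot noise for its IMQ value was taken from dimmer probes. CXCL11 (chr4:76955615-76955674) read 5.50, 4.87, and 4.28, close to the lowest log2 value that counted as well above background (4.04 on Ctrl, 4.57 on IMQ, and 4.08 on IMQ+DMD). Its IMQ+DMD minus Ctrl difference of -1.22 was past 2-fold, and its IMQ minus Ctrl difference of -0.63 was within 2 technical SDs. Under background correction with normexp, CXCL9 and CXCL10 were at -0.71 and -0.90 for IMQ against Ctrl, and CXCL9, CXCL10, and CXCL11 at -0.58, -0.998, and -0.41 for IMQ+DMD against Ctrl, all under 2-fold.

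RSAD2 (viperin) and CMPK2 are neighbours on chromosome 2, and viperin turns CTP into a chain terminator of viral RNA synthesis. RSAD2 (chr2:7037200-7037259) read 9.57, 8.32, and 8.45, and CMPK2 (chr2:6988467-6988526) read 10.15, 8.97, and 9.02. The IMQ minus Ctrl differences were -1.25 and -1.19, so both genes were more than 2-fold lower. A second CMPK2 probe, which targets NM_001256477, read 4.68, 4.96, and 5.13, a difference of 0.28 that lay within its technical SD of 0.67. When all measured probes of a gene were averaged, CMPK2 was at -0.45 for IMQ against Ctrl. A second RSAD2 probe was not well above background on any array.

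PARP9 and DTX3L form an ADP-ribosylation and ubiquitin ligase complex, and PARP14 is a related ADP-ribosyltransferase. PARP9 read 9.86, 9.02, and 9.15 (other probe 8.07, 7.62, and 7.42), and PARP14 read 10.23, 10.19, and 10.43. The IMQ minus Ctrl differences were -0.84 for PARP9, -0.43 for DTX3L, and -0.04 for PARP14, so the partners PARP9 and DTX3L were lower and PARP14 was level within the spot noise.

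The membrane-associated ISGs held genes of both signs, between -0.39 and 0.48 for IMQ against Ctrl. BST2 (tetherin), which holds budding virions at the cell surface, was at -0.24, and LY6E at -0.39. IFI6 read 15.44 on Ctrl, 15.62 on IMQ, and 15.77 on IMQ+DMD, and IFI27 read 11.08, 11.19, and 11.18. PLSCR1, a phospholipid scramblase, read 10.41 on Ctrl and 10.89 on IMQ, a difference of 0.48, and was 0.09 above Ctrl on the IMQ+DMD array. The median of these 5 genes was 0.10 after quantile normalization, while the other 10 groups had medians below 0. IFI6, IFI27, and PLSCR1 fell below Ctrl under spike-in scaling (-0.28, -0.48, and -0.10), so their sign rested on the scaling.

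ISG20 is an exonuclease that degrades single-stranded RNA, and it was the 1 ISG at least 2-fold higher after IMQ. Its probe (chr15:89198784-89198843) read 11.47 on Ctrl, 13.43 on IMQ, and 13.12 on IMQ+DMD, and the processed intensity before normalization was 3466, 10440, and 7705. The IMQ minus Ctrl difference was 1.96 (3.89-fold higher, technical SD 0.06), and ISG20 was the single ISG at least 2-fold higher in each of the 10 alternative settings. With DMD the difference from Ctrl was 1.65, which is 84.3% of the rise after IMQ. The IMQ array enters both the choice of ISG20 and this share, so the share is a description. The RefSeq window of ISG20 printed above contains 1 ISRE core.

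The remaining 8 ISGs were all lower after IMQ than Ctrl, by unequal amounts. TRIM22 (chr11:5731591-5731650), a ubiquitin ligase that restricts viral transcription, read 8.56, 7.30, and 7.46, a difference of -1.26 for IMQ against Ctrl that was -0.98, under 2-fold, with normexp. XAF1, an antagonist of the apoptosis inhibitor XIAP, read 9.80, 8.90, and 8.97 (other probe 7.99, 7.37, and 7.33). IFI35 read 11.44, 10.65, and 10.93, and IFI44L and IFI44 were at -0.91 and -0.86. SAMD9L read 11.08, 10.48, and 10.79, and its paralog SAMD9 read 7.46, 7.21, and 6.77. The paralogs had opposite signs for IMQ+DMD against IMQ (0.30 and -0.44), although SAMD9 became 0.01 under spike-in scaling. EPSTI1 read 7.92, 7.79, and 7.50, and for it and SAMD9 the IMQ minus Ctrl difference was within 2 technical SDs.

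**Figure D3:**
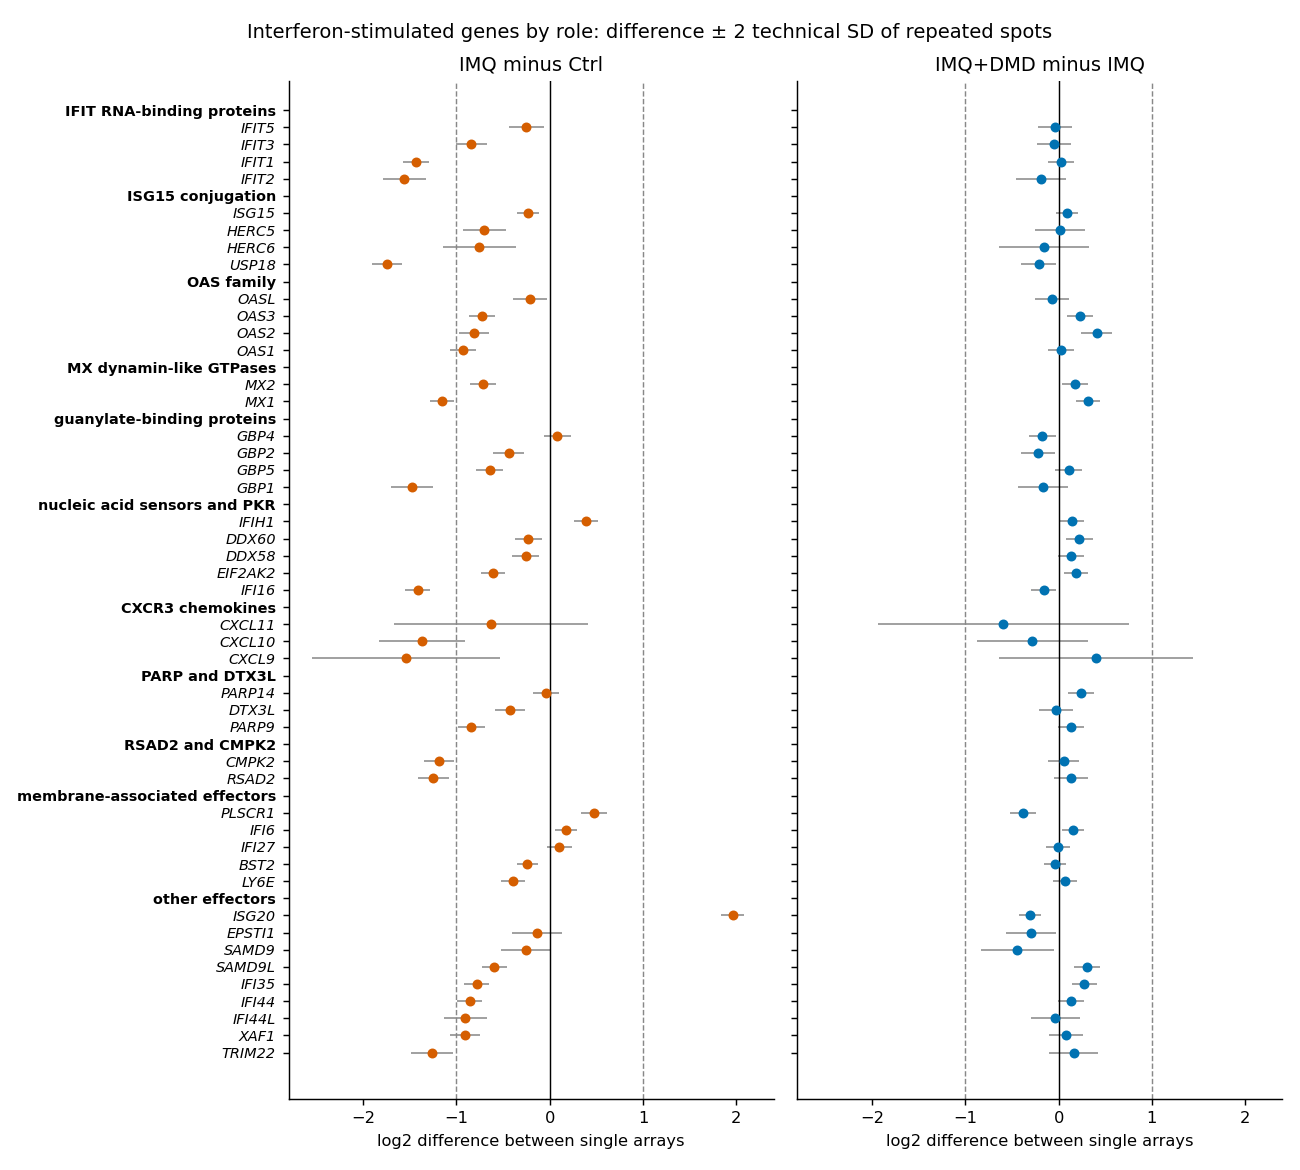
Log2 differences between single arrays (x axis) for the 45 ISGs grouped by role (y axis), IMQ minus Ctrl on the left and IMQ+DMD minus IMQ on the right, with bars of 2 technical SDs from repeated spots and dashed lines at 2-fold. On the left 11 genes lie beyond the lower dashed line and ISG20 alone beyond the upper one, and on the right all 45 lie between the lines.

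ISG signals with DMD were close to those after IMQ alone. Of the 45 genes, 25 were higher on the IMQ+DMD array than on the IMQ array and 20 were lower, against 51.3% higher and 48.7% lower among the 30711 genes compared. None of the ISGs differed by 2-fold, where 1.2% of all genes were at least 2-fold higher and 1.24% at least 2-fold lower. The median log2 difference was 0.03 over the ISGs and 0.01 over all genes, and the values ran from -0.59 (CXCL11) to 0.41 (OAS2). The small differences depended on the scaling, since 3 ISGs were lower under spike-in scaling and 20 after quantile normalization. Under spike-in scaling, which moved the median of all genes to 0.28, CXCL9 was 1.01 log2 units higher with DMD and passed 2-fold.

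Beyond 2 technical SDs, 11 ISGs (24.4%) were higher with DMD, against 15.9% of all genes (OAS2, OAS3, MX1, MX2, IFIH1, DDX60, EIF2AK2, PARP14, IFI6, IFI35, and SAMD9L). Other probes of OAS3, MX2, and EIF2AK2 had the opposite sign. The differences of IFI35 and MX1 were 0.28 and 0.32. A further 8 were lower, against 13.7% of all genes (USP18, GBP2, GBP4, IFI16, PLSCR1, ISG20, EPSTI1, and SAMD9). Of these, USP18, GBP2, GBP4, EPSTI1, and SAMD9 changed sign under spike-in scaling, where the median of all genes was 0.28. PLSCR1 and ISG20, both higher after IMQ, had IMQ+DMD minus IMQ differences of -0.38 and -0.31. Of the other ISGs higher after IMQ, IFIH1 and IFI6 were at 0.15 each, IFI27 at -0.005, and GBP4 at -0.17. Any grouping by the IMQ minus Ctrl difference uses the IMQ array, which is also the baseline here, so these values are a description. Of the 11 ISGs at least 2-fold lower after IMQ, 6 were higher and 5 lower with DMD, between -0.28 and 0.40. The remaining 26 ISGs differed by less than 2 technical SDs.

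The comparison of IMQ+DMD with Ctrl shares the Ctrl array with that of IMQ. Here 39 ISGs were lower, against 45.1% of the 32635 genes compared, and 6 were higher, against 54.9%. A 2-fold or larger decrease was found for 11 ISGs (24.4%), against 4.9% of all genes, and an increase for ISG20 alone, against 3.14%. The median was -0.54 over the ISGs and 0.05 over all genes. With normexp, 6 ISGs were at least 2-fold lower. Beyond 2 technical SDs, 36 ISGs were lower, against 20.4% of all genes, and 4 higher, against 23.4%. USP18 at -1.96, IFIT2 at -1.74, CXCL10 and GBP1 at -1.65, and IFI16 at -1.58 had the most negative values.

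Further probes of the same genes gave a check of the signs that the choice of probe did not use. They read the same RNA on the same arrays, so they check the probes and not the cultures or arrays. Of 15 such probes, 13 passed the background mark on every array. In the IMQ against Ctrl comparison, 11 of the 13 were lower, against 52.3% of all genes, with a median of -0.54. The exceptions were the dimmer probes of MX2 and CMPK2 described above. The median distance between another probe and the chosen one was 0.28 log2 units, against a median technical SD of 0.07. For IMQ+DMD against IMQ, 6 of the 13 had the sign of the chosen probe. Probe pairs of HERC6, OAS3, DDX58, EIF2AK2, PARP9, MX2, and XAF1 had opposite signs there, for example 0.13 and -0.35 for DDX58 and 0.23 and -0.26 for OAS3.

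**Figure D4:**
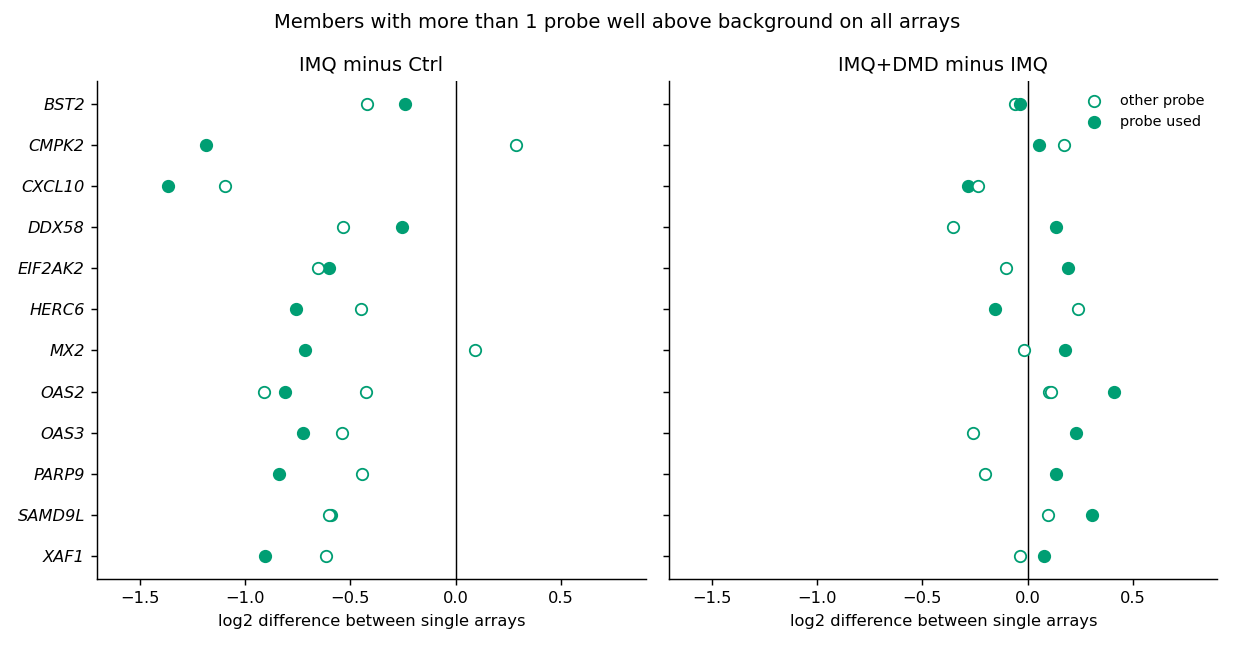
Log2 differences (x axis) of the probes of 12 ISGs with more than 1 measurable probe (y axis), IMQ minus Ctrl on the left and IMQ+DMD minus IMQ on the right, with filled circles for the probe used and open circles for the others. On the left 11 of the 13 open circles lie below 0, and on the right the circles of a gene often fall on both sides of 0.

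A wider list of 50 other ISGs showed a weaker difference of the same sign. Of the 48 that could be compared, 34 were lower after IMQ than Ctrl and 14 higher, against 52.3% and 47.7% of all genes. The median was -0.26, against -0.02 over all genes. At least 2-fold lower were 6, against 3.67% of all genes, and at least 2-fold higher were 2, against 4.23%. GBP3, a GBP1 paralog, read 10.20, 8.51, and 8.32 on Ctrl, IMQ, and IMQ+DMD. The other 5 at least 2-fold lower after IMQ were SIGLEC1 (-1.25), LGALS9 (-1.14), TRIM14 (-1.08), RTP4 (-1.07), and TNFSF10 (-1.02). The tryptophan-degrading enzyme IDO1 and the lysosomal protein LAMP3 were much higher, with log2 differences of 5.47 and 3.98. IDO1 read 6.30, 11.77, and 10.41, and its IMQ+DMD minus IMQ difference of -1.35 was the one of this list beyond 2-fold. CD274 (PD-L1) read 6.61, 7.47, and 7.83, and was 1.22 higher than Ctrl on the IMQ+DMD array.

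Interferon transcripts were mostly too dim to compare. Of 14 interferon genes on the array, 3 could be compared between IMQ and Ctrl. The IFNA genes, like IFNL2 and IFNL3, are near-identical copies, so a probe may read more than 1 of them. IFNA21 read 6.51, 5.38, and 5.75 on Ctrl, IMQ, and IMQ+DMD, IFNL1 read 6.14, 6.05, and 6.45, and IFNL2 read 8.16, 8.21, and 8.18. IFNB1 read 3.90, 3.99, and 5.04 and was well above background on IMQ+DMD alone. There it was at least 1.38-fold higher than on IMQ and at least 1.99-fold higher than on Ctrl. These lower bounds, 0.47 and 0.99 in log2 units, were smaller than 2 technical SDs (SD 0.52). Because they are bounds, they do not place the differences themselves within the spot noise or beyond it. IFNA2 read 4.44 on Ctrl and 4.61 on IMQ+DMD and was not well above background on IMQ. IFNG and the other IFNA, IFNE, IFNK, IFNW1, and IFNL3 probes were not well above background on any array.

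The interferon receptors and signalling genes did not move as one group. IFNGR1 read 15.29, 13.88, and 13.77 and its partner IFNGR2 read 12.47, 13.77, and 13.39, differences of -1.41 and 1.30 for IMQ against Ctrl. IFNAR1 was at 0.64 and IFNAR2 at 0.07. STAT2 (-0.02) and IRF9 (-0.05), which take part in driving ISRE genes, were near level. IRF8, a myeloid transcription factor, was the 1 of 11 transducers past 2-fold, with 10.81, 9.68, and 9.16. TLR7 read 9.24, 6.51, and 5.75, differences from Ctrl of -2.73 and -3.49, and TLR8 was at least 2.0-fold lower after IMQ and at least 2.82-fold lower after IMQ+DMD. TLR3, a sensor of double-stranded RNA, was at least 1.91-fold lower after IMQ and at least 2.69-fold lower after IMQ+DMD. Of the feedback inhibitors, SOCS3 read 5.35, 10.78, and 10.34 (5.43 higher after IMQ), and SOCS1 was at -0.36.

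NF-κB target genes had the opposite direction on the same arrays. All 20 that were on the array were higher after IMQ than Ctrl, against 47.7% of all genes, with a median of 2.51. Of them 19 were at least 2-fold higher, against 4.23% of all genes. Like the other gene lists, this one was chosen with earlier results of these data known, so the counts are a description. CXCL8 read 8.30, 14.45, and 14.54, TNF read 9.43, 12.90, and 12.34, and NFKBIA, which encodes the NF-κB inhibitor, read 12.76, 16.26, and 16.13. With DMD, 18 of the 20 were lower than after IMQ alone, against 48.7% of all genes, with a median of -0.20. None was beyond 2-fold, where 1.24% of all genes were at least 2-fold lower. These genes were high on the IMQ array, which is also the baseline here, so this small fall is a description only. The IMQ array therefore combined a strong NF-κB target signal with ISG signals mostly below Ctrl.

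**Figure D5:**
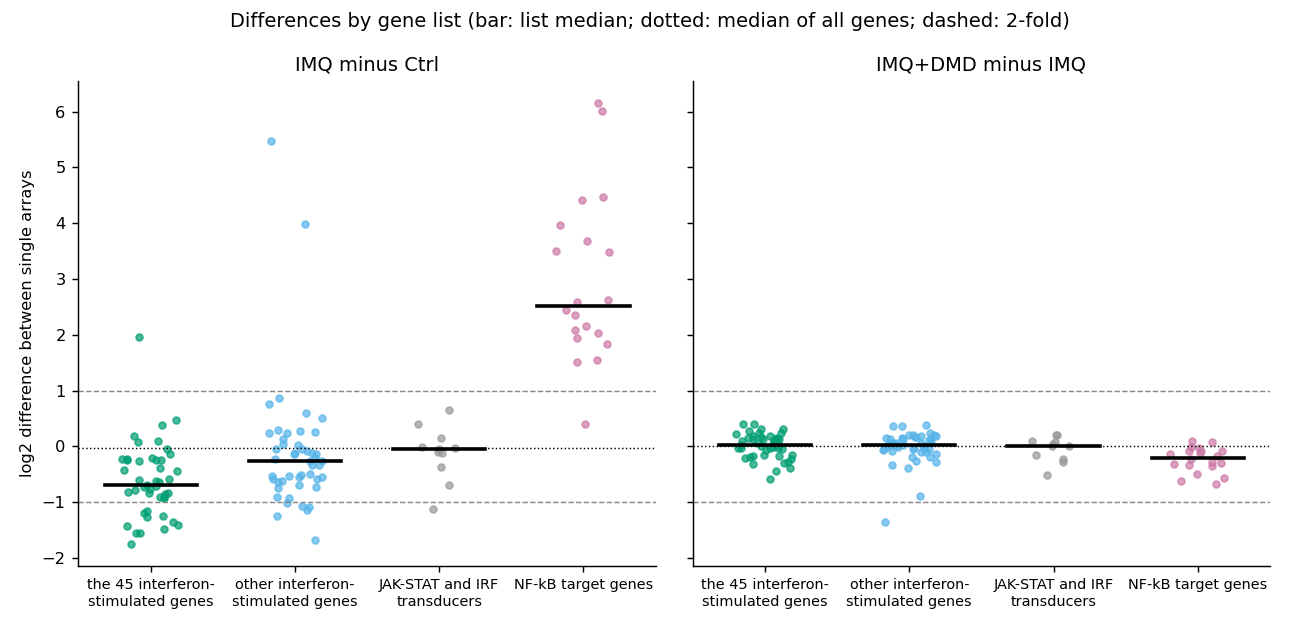
Log2 differences between single arrays (y axis) for the 45 ISGs, other ISGs, JAK-STAT and IRF transducers, and NF-κB target genes (x axis), for IMQ minus Ctrl (left) and IMQ+DMD minus IMQ (right), 1 point per gene with spread along the x axis for legibility. Bars are list medians (-0.70, -0.26, -0.05, and 2.51 on the left), the dotted line is the median of all genes, and the dashed lines mark 2-fold.

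Markers of the cell type were present on all arrays. All 9 monocyte and macrophage markers found on the array were well above background, with CSF1R at 17.76 on Ctrl. CD14 read 14.44, 13.71, and 13.21, and CD163 read 13.43, 12.20, and 12.29. Of the markers of plasmacytoid dendritic cells, which make much type I interferon, IL3RA was 2.61 higher after IMQ, LILRA4 was at -0.16, TCF4 at -0.58, and CLEC4C was near the background limit. T cell markers ran from -0.37 to 0.40, and B cell markers from -0.52 to -0.12. The NK cell marker NCAM1 was 3.08 higher after IMQ, NCR1 was at -0.20, KLRF1 at -0.45, and KLRD1 was not well above background, and of 4 fibroblast markers LUM and COL1A2 were not. Of 4 keratinocyte markers, KRT10 read 14.20, 14.10, and 14.15, and KRT14 and KRT1 were at 0.08 and -0.34 for IMQ against Ctrl. KRT5 read 5.32, 4.14, and 5.68 and was not well above background on IMQ. It was at least 2.16-fold higher on IMQ+DMD than on IMQ (technical SD 0.52). The part of these marker differences in the ISG values was not tested.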

How the data were processed

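RNA of THP-1 macrophages in 3 conditions was hybridized to 1 one-color Agilent array each, all on 1 slide. The authors deposited the scanner output (Feature Extraction 10.5.1.1), with a background-corrected intensity and quality marks per spot, and a table of raw and quantile-normalized intensity per probe. The raw intensity in this table was equal to the scanner value within 0.1% for all 57901 probes with 1 spot. No column of sample values was left unused. Labelling and amplification were as the labels describe, and the array design gives probe positions in hg19. No genome was used, so exons and UTRs under the probes were not assigned.

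Control spots (1767 positive and 308 negative) and outlier-marked spots (52 on Ctrl, 73 on IMQ, and 82 on IMQ+DMD) were left out. Quantile normalization of the intensity was done in limma 3.58.1 (R 4.3.3), log2 was taken, and the spots of each probe were averaged. Of 58201 probes, 72.0%, 66.6%, and 71.9% were well above background on Ctrl, IMQ, and IMQ+DMD, and 0 spots were saturated. A probe counted as well above background where at least 0.5 of its spots were marked so. A dimmer value was replaced by the lowest value that counted as well above background on its array, unless its own was higher. A fold against such a value is a lower bound, "at least N-fold". Genes were compared where the probe was well above background on the brighter array, and 2-fold counted as a difference. Because each condition had 1 array, there was no test, and precision is limited by the number of arrays. The technical SD of a difference came from 300 probes with 10 spots on each array, by brightness in steps of 1 log2 unit. A step with under 10 values took the SD of a neighbouring step. Log2 values between 4 and 5, with 9 values and a median SD of 0.30, therefore took 0.47 from the step of 3 to 4. The script was tested on simulated data.

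The ISGs and the other gene lists were chosen with earlier results of these data known. Values on all arrays were given for ISGs at least 2-fold different in any comparison, for the 5 with the largest differences in each direction, and for genes whose probes disagreed. Of the other lists, genes past 2-fold, the interferons, STAT2, and IRF9 were named, 1 further gene of that rule is not reported here, and the NF-κB targets were summarised with 3 examples. Promoter windows were from RefSeq. The alternatives were other scalings, background correction, the authors' normalized values, spot and probe filters, probe choice, and the fold threshold. Counts and plots were made in Python 3.11.15 (pandas 2.3.3, numpy 2.4.6, matplotlib 3.10.9).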

Additional observations from a re-analysis of the deposited data

How the results depend on the processing

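No paired analysis was possible because each condition had 1 array. After IMQ against Ctrl, the number of ISGs at least 2-fold lower was 11, and it was 25 on the unnormalized arrays (15.8% of all genes), 29 under spike-in scaling (25.1%), and 8 under normexp (1.93%). At a threshold of 1.5-fold 27 were lower (10.8% of all genes), and at 4-fold 0 were lower and 0 higher. The ISG median of -0.70 became -0.56 under normexp, -0.63 when all probes of a gene were averaged, -1.15 on the unnormalized arrays, and -1.33 under spike-in scaling. When IMQ+DMD was compared with IMQ, CXCL9 (1 ISG) passed 2-fold upwards under spike-in scaling, CXCL11 (1 ISG) passed 1.5-fold downwards, and the median of 0.03 became 0.27 under the spike-in controls. Between IMQ+DMD and Ctrl, the 11 ISGs at least 2-fold lower became 6 under normexp (2.52% of all genes), 21 by the spike-in controls (9.48%), 24 on the unnormalized arrays (10.4%), 22 at 1.5-fold (11.5%), and 0 at 4-fold, where 0 were higher. The median of -0.54 became -1.02 on the unnormalized arrays and -0.98 by the spike-in controls. The remaining rise of ISG20, 84.3%, was 72.5% on the unnormalized arrays and 77.3% after 75th-percentile scaling. The cause of these changes was not tested beyond the shift of all genes given with the medians. Of 340 values of single ISGs named in the text, 241 moved by less than their technical SD, 99 moved further, and 0 reversed a 2-fold difference. Part of the 241 was fixed in advance. The background filters returned the main value for these ISGs, as did probe choice for genes with 1 probe. Differences under 2-fold could not count as reversed. Among those for IMQ+DMD against IMQ, CXCL11, SAMD9, and EPSTI1 changed sign under spike-in scaling. The spike-in scaling used the median over the 8 controls well above background on all arrays, a detail settled after the values were seen. Dim probes, above all those of CXCL9, CXCL11, and the interferons, limit what could be compared.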
